A study of Mus musculus with 18 samples.

Results

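Heart native endothelial cells (ECs) were compared with heart control fibroblasts by RNA sequencing of cultured mouse cells, across all expressed genes. The comparison uses 6 of the 18 libraries of the study, 3 labelled heart EC and 3 labelled heart control fibroblast, which were chosen by their labels alone. Per the labels, all 6 were taken at day 7 in EGM2, an endothelial growth medium. The study set native cells and iECs of heart and lung side by side to ask how organ-specific endothelial identity is acquired, and this comparison sets the libraries labelled native EC against those labelled fibroblast within the heart. The labels used here name no mouse strain, age, sort or number of animals, and nothing says that the replicates came from separate animals or cultures. Any p-value below thus speaks only of how far these samples scatter, and that scatter may be technical.

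Endothelial cells line blood and lymph vessels. They are held together by the adhesion proteins VE-cadherin and PECAM1, sense vascular endothelial growth factor and angiopoietins through receptor tyrosine kinases of the VEGF receptor and Tie families, and keep their identity through transcription factors of the ETS and SOXF families. Arteries, veins, capillaries, lymph vessels and the endocardium each add genes of their own. Cardiac fibroblasts descend largely from the epicardium, carry the PDGF receptor alpha and the transcription factor Tcf21, and build the collagen, proteoglycan and elastic fibre network between heart muscle cells.

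The 6 libraries held 18533911 to 23559443 estimated counts each, and the correlation between replicates of 1 group was 0.992 to 0.9943 (Pearson's r of log2 CPM across genes, where CPM are counts scaled to 1e6 per library). Between 15928 and 16137 genes had a count in the fibroblasts and between 16599 and 16837 in the ECs. The 10 genes with most counts took 8.14% ± 0.0329 of the counts in fibroblasts and 6.45% ± 0.142 in ECs (mean ± SD, n = 3). Of 14864 genes tested, 3590 were higher in heart ECs (24.2%) and 3461 lower (23.3%), so that 47.4% differed in either direction (edgeR's quasi-likelihood test, adjusted p under 0.05). At 62.1% of the genes the 3 ECs and the 3 fibroblasts did not overlap in CPM. The median log2 change over all tested genes was 0.0041, with quartiles at −0.345 and 0.409. These shares and this median are the background for each gene list below.

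Large differences were mostly rises. A change of over 2-fold was called for 867 genes higher in heart ECs (5.83%) and 308 lower (2.07%) with a test against a 2-fold change (glmTreat in edgeR). Among genes called at any size, 362 were more than 3 log2 units higher and 58 more than 3 lower. The near-even split of all calls, 50.9% of them higher, depends on the scaling: with library totals alone, a choice made after seeing the data, 4630 genes were higher and 2432 lower, or 65.6% higher, because the median log2 change moved to 0.118. Every change below is relative to the scaled median, and every fold is a fitted log2 difference, EC minus fibroblast, with its SE after ±.

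**Figure D1:**
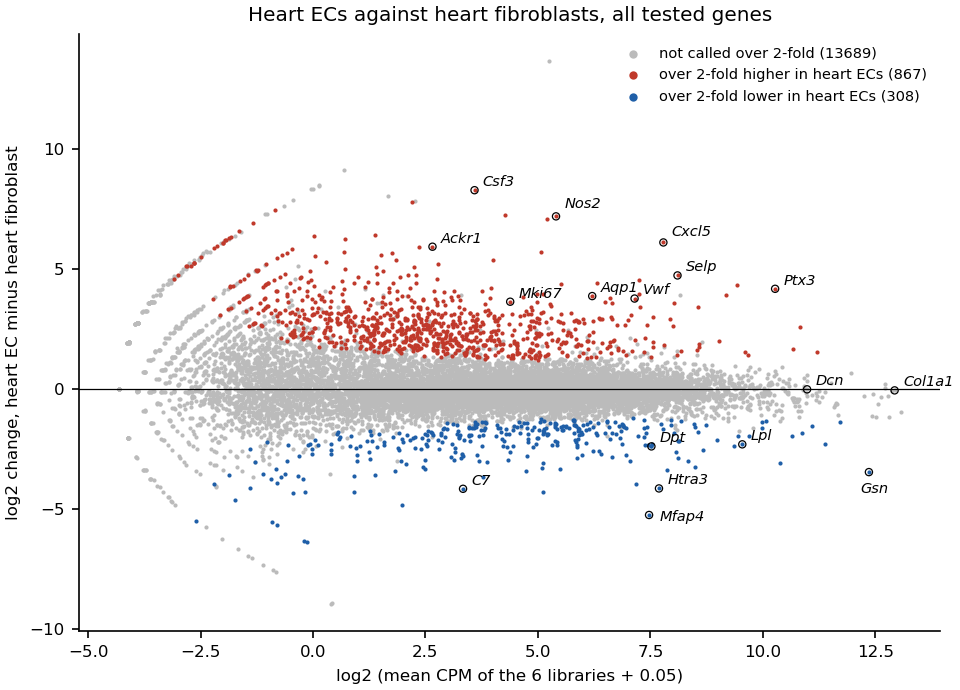
Each point is 1 of the 14864 tested genes, with the mean level of the 6 libraries on the x axis (log2 CPM after adding 0.05) and the fitted log2 change on the y axis, red where over 2-fold higher and blue where over 2-fold lower in heart ECs. The named inflammatory genes Csf3, Nos2 and Cxcl5 lie above 6, Mfap4 lies at −5.23, and Col1a1 and Dcn lie at 0. The point above 13 is the predicted gene Gm10359, which had no count in the fibroblasts and was not called over 2-fold.

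The labels were checked first against markers. Pecam1, the platelet endothelial adhesion molecule, stood at 45.8, 40.1 and 41.2 CPM in the fibroblasts and at 302, 291 and 303 CPM in the ECs. Cdh5, which encodes VE-cadherin, stood at 76.4, 60.6 and 64.6 CPM against 470, 414 and 461 CPM. Both genes separated the groups fully, and both were well above 0 in the libraries labelled fibroblast. Together the 10 endothelial markers took 0.0643% to 0.0654% of the counts in heart fibroblasts and 0.256% to 0.27% in heart ECs. Most of the heart fibroblast share was the endoglin gene Eng, at 409, 422 and 433 CPM. In the lung libraries of the same study the same 10 markers averaged 0.0114% in fibroblasts and 0.339% in ECs.

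As a sum, fibroblast markers differed less between the groups than endothelial markers did. Pdgfra, Col1a2, Col3a1, Lum, Dpt, Tcf21, Thy1 and Postn were each called lower in the ECs, with groups that did not overlap. Only Col1a1 and Dcn overlapped. The 10 fibroblast markers together took 2.69% to 2.83% of the counts in heart fibroblasts and 2.02% to 2.1% in heart ECs, against averages of 3.9% and 0.695% in lung fibroblasts and lung ECs. Col1a1, the main chain of type I collagen, stood at 7114, 7975 and 7666 CPM in the fibroblasts and at 8020, 8044 and 7893 CPM in the ECs. Dcn, which encodes the proteoglycan decorin, stood at 2076, 1801 and 1941 CPM against 2282, 2066 and 1962 CPM. Neither gene was called (log2 changes of −0.04 ± 0.113 and 0.0042 ± 0.328, edgeR adjusted p = 0.796 and 0.998). In bulk RNA, fewer cells of a type and less RNA per cell cannot be told apart. For the same reason, fibroblasts within the EC cultures and matrix genes read in ECs themselves cannot be told apart here, and neither can ECs within the fibroblast cultures.

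**Figure D2:**
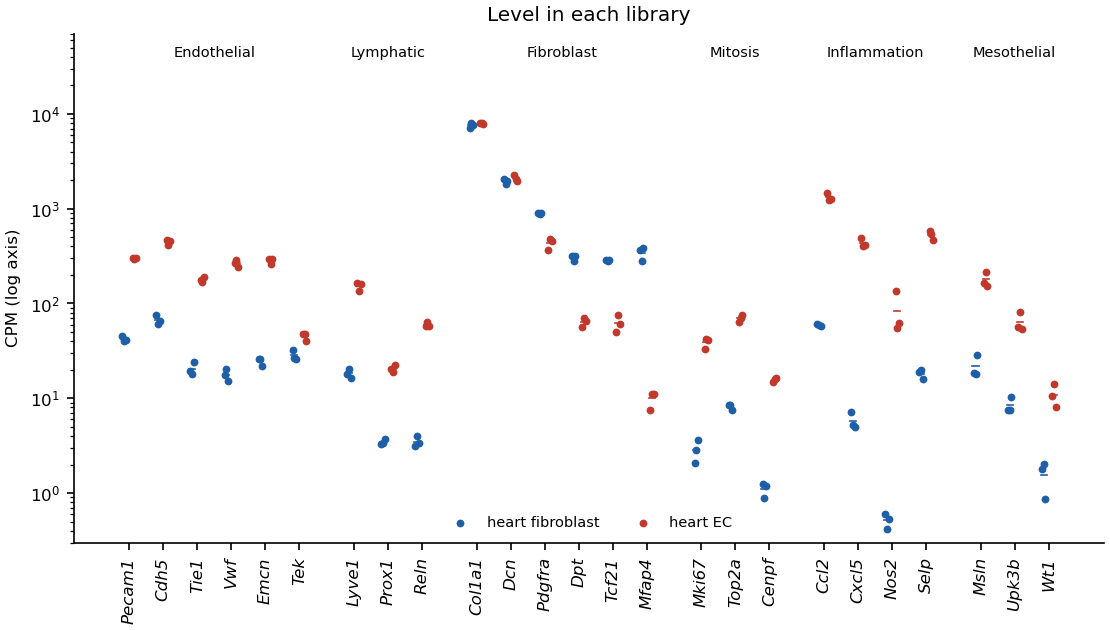
CPM of the genes named on the x axis in each library on a log axis, with heart fibroblasts in blue and heart ECs in red, points for the 3 libraries and short bars for their mean. The groups are far apart at lymphatic, mitotic, inflammatory and mesothelial genes and at the endothelial genes other than Tek. They overlap at Col1a1 and Dcn, and are reversed at Pdgfra, Dpt, Tcf21 and Mfap4.

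All 28 pan-endothelial genes were higher in the heart ECs, 22 of them by over 2-fold, with a median log2 change of 2.60. The sizes were far from even. Tie1, a receptor of the Tie family, went from 19.2, 18.2 and 23.9 CPM to 175, 167 and 188 CPM (3.0 ± 0.101, edgeR adjusted p = 4.71e-13). Its sister receptor Tek, which binds angiopoietins, went only from 32.6, 26.8 and 26.2 CPM to 47.5, 47.7 and 40.5 CPM (0.55 ± 0.112, adjusted p = 0.000585). The VEGF receptor genes Kdr and Flt1 rose by 2.39 ± 0.136 and 1.98 ± 0.146. Clec14a, a surface lectin-like protein of the endothelium, rose by 3.13 ± 0.194, the diaphragm protein gene Plvap by 2.93 ± 0.192 and the sphingosine 1-phosphate receptor gene S1pr1 by 2.83 ± 0.139. Nos3, the endothelial nitric oxide synthase, rose from 6.08, 4.84 and 4.90 CPM to 18.1, 15.4 and 17.1 CPM, that is, by 1.56 ± 0.268. The smallest rise in the list was that of the phosphatase gene Ptprb (0.54 ± 0.108), and Eng, the TGF-beta co-receptor endoglin, began high, at 409, 422 and 433 CPM in the fibroblasts against 902, 893 and 935 CPM in the ECs.

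Among 23 tested endothelial transcription factors, 17 were higher and 2 lower, with a median of 1.09. The ETS factor Erg stood at 6.5, 7.57 and 7.97 CPM in the fibroblasts and at 53.5, 43.8 and 51.4 CPM in the ECs (2.64 ± 0.182, edgeR adjusted p = 5.39e-09). The SOXF genes Sox17 and Sox18 rose by 2.31 ± 0.193 and 2.05 ± 0.148, and Bcl6b, a repressor of the vascular endothelium, by 2.67 ± 0.279. The hematopoietic and endothelial factors Tal1 and Lmo2 rose by 2.5 ± 0.269 and 1.57 ± 0.159. Other ETS family members were present in both cell types and differed less: Ets1 by 0.69 ± 0.109, Elk3 by 0.43 ± 0.0576, and Etv6 not past the threshold (0.06 ± 0.0833). Mef2c and Nr2f2 were the 2 that fell (by 0.77 and 0.46). Nr2f2, known for setting venous fate, stood at 53.9, 45.7 and 50.6 CPM in the fibroblasts and 39.2, 38.7 and 40.6 CPM in the ECs.

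Genes linked to single vessel types were read as separate lists, some of whose members are also in other lists. Of 18 tested arterial genes 11 were higher and 4 lower (median 1.03). The gap junction genes Gja4 and Gja5 rose by 2.98 ± 0.168 and 3.84 ± 0.359, and the ephrin gene Efnb2, which marks arteries, went from 15.8, 16.5 and 20.5 CPM to 89.4, 94.2 and 84.2 CPM. Nrp1 and Mgp, both also made by mesenchymal cells, fell by 0.93 and 1.21. Of 12 venous genes 8 were higher and 1 lower (median 1.29). Of those that were higher, Vwf and Emcn are also in the pan-endothelial list, and Selp and Vcam1 in that of leukocyte adhesion below. Besides Ackr1, the others were Ephb4, Nrp2 and Tmem252, which rose by 0.28 ± 0.0713, 0.42 ± 0.124 and 1.81 ± 0.222. Ackr1, the chemokine-binding receptor of venules, was close to nothing in the fibroblasts (0.278, 0.047 and 0.215 CPM) and stood at 12.7, 10.8 and 13.4 CPM in the ECs (5.95 ± 0.596, edgeR adjusted p = 3.30e-07).

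In the lymphatic list 9 of 10 genes rose and none fell (median 2.08). Reln, a secreted protein of collecting lymph vessels, stood at 3.11, 4.0 and 3.39 CPM in the fibroblasts and at 57.2, 63.6 and 58.5 CPM in the ECs. Mmrn1, a multimerin, stood at 15.0, 14.9 and 11.8 CPM against 189, 174 and 193 CPM. These 2 genes separated the groups by 3.98 ± 0.185 and 3.62 ± 0.169. Flt4, the receptor of VEGF-C, rose by 1.71 ± 0.109, and its ligand gene Vegfc by 0.66 ± 0.128. The remaining gene, Ccl21a, stood at or under 2.56 CPM in every library and did not pass the threshold (log2 change −0.77 ± 0.689).

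Endocardial and capillary genes were mixed. Of 7 tested endocardial genes 5 were higher and 1 lower (median 2.39). Nrg1, the ligand by which endocardium signals to heart muscle, rose from 6.31, 7.94 and 5.22 CPM to 137, 173 and 146 CPM (4.43 ± 0.173, edgeR adjusted p = 4.12e-12), and Bmp2 rose by 2.39 ± 0.2. Npr3, a natriuretic peptide receptor often used to mark endocardium, ran the other way, at 149, 132 and 136 CPM in the fibroblasts and 81.9, 89.5 and 84.5 CPM in the ECs. Of 11 tested genes of capillary lipid handling 5 were higher and 2 lower (median 0.84), the 2 being 1 in each fit that left out 1 library other than EC replicate 1. The fatty acid carrier gene Cd36 rose by 1.19 ± 0.248 and Gpihbp1, the endothelial anchor of lipoprotein lipase, by 1.34 ± 0.209. The lipase gene itself, Lpl, stood at 1261, 1148 and 1249 CPM in the fibroblasts and at 260, 285 and 266 CPM in the ECs, a fall by 2.29 ± 0.241. Aqp1, the water channel of continuous capillaries, rose from 8.68, 8.84 and 8.45 CPM to 152, 131 and 134 CPM.

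Angiogenic and Notch genes were on balance higher. In the tip cell list 9 of 13 genes rose and 1 fell (median 0.96), with Angpt2, the Tie receptor antagonist of sprouting vessels, at 35.4, 24.4 and 31.8 CPM against 221, 187 and 231 CPM. Pdgfb, the ligand with which ECs recruit mural cells, rose by 2.47 ± 0.119. In the Notch list 9 of 16 rose and 1 fell (median 0.94; 2 fell when only the 6 heart libraries were fitted). The receptor genes Notch1 and Notch4 rose by 1.07 ± 0.105 and 1.09 ± 0.0888, Notch2 fell by 0.61, and the ligand Dll4 rose by 0.98 ± 0.146 from low levels. Among target genes, Nrarp rose by 2.72 ± 0.281, whereas Hes1, Hey1, Hey2 and Heyl did not pass the threshold (log2 changes of −0.43, 0.87, 0.94 and 0.20). Of 30 guidance genes 18 were higher and 5 lower (median 0.43; 8 lower when only the 6 heart libraries were fitted). Sema7a rose by 2.77 ± 0.190, the plexin gene Plxnd1 by 1.56 ± 0.124, and the ephrin receptor gene Epha2 by 1.93 ± 0.0849, while Slit3, a ligand of Robo receptors, fell by 1.47.

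**Figure D3:**
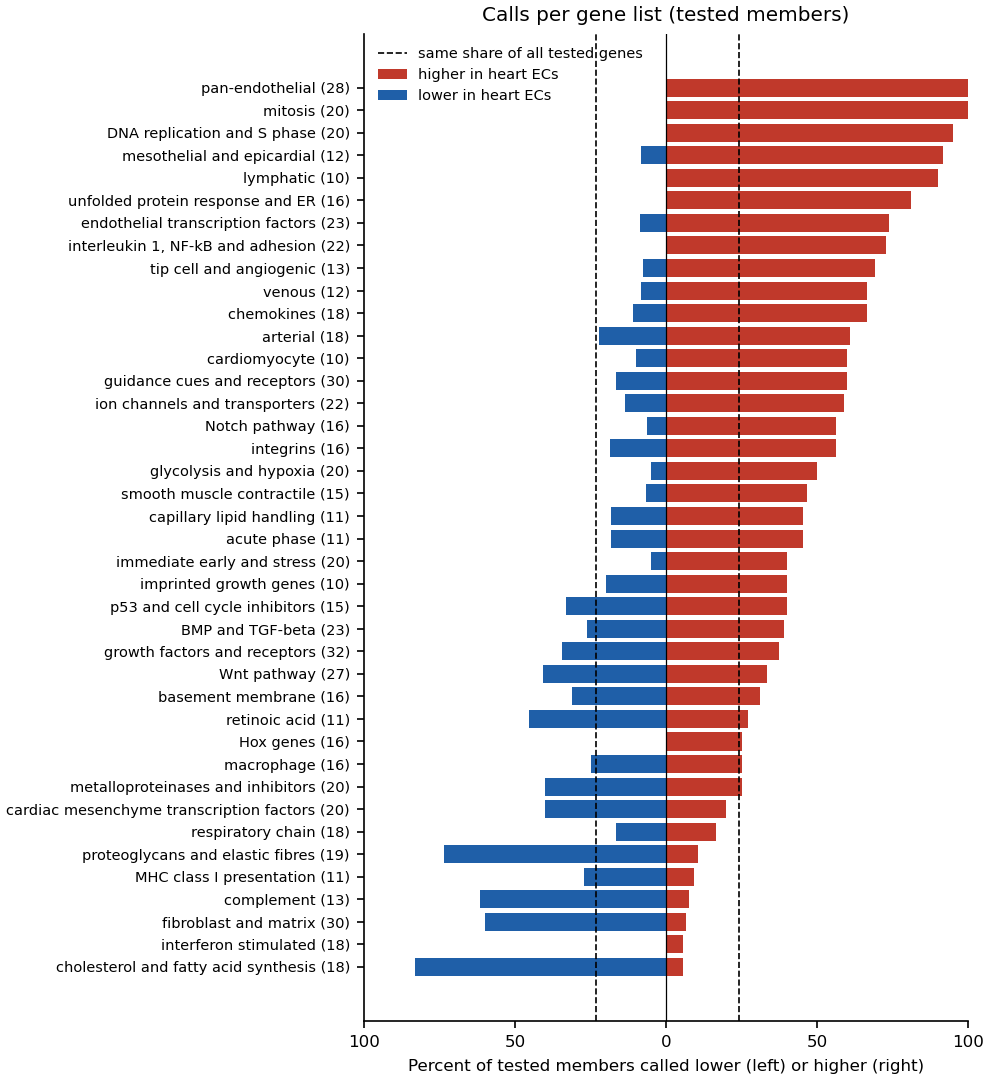
For each gene list with at least 10 tested members (number in brackets), the red bar gives the percent of tested members called higher in heart ECs and the blue bar the percent called lower. The dashed lines mark the same shares over all tested genes, 24.2% and 23.3%. Pan-endothelial and mitosis genes reach 100% higher, and cholesterol and fatty acid synthesis genes have the longest blue bar, with 15 of 18 lower.

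The fibroblast and matrix list had 18 of 30 genes lower in the heart ECs and 2 higher, with a median of −0.67 (4 higher when library totals alone were used, or when only the 6 heart libraries were fitted). Some members differed strongly: Fbln1, a fibulin of elastic and basement membranes, stood at 501, 429 and 519 CPM in the fibroblasts and at 63.6, 78.2 and 77.7 CPM in the ECs (−2.84 ± 0.101, edgeR adjusted p = 7.67e-13). Ogn, the proteoglycan osteoglycin, stood at 238, 200 and 198 CPM against 25.3, 43.1 and 34.8 CPM, and Tcf21 at 288, 280 and 291 CPM against 50.5, 75.6 and 61.5 CPM. Others were close: besides Col1a1 and Dcn, the fibronectin gene Fn1, the type V collagen gene Col5a2, the fibrillin gene Fbn1 and vimentin (Vim) did not pass the threshold, with log2 changes of 0.06 ± 0.135, −0.10 ± 0.0905, 0.16 ± 0.129 and −0.08 ± 0.0862. Col3a1, the type III collagen gene, fell by 1.14 and Col1a2, the second chain of type I, by 0.59. The calcium-binding gene S100a4 rose by 0.92 ± 0.266.

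Of 19 proteoglycan and elastic fibre genes 14 fell and 2 rose (median −0.83). The fibrillin gene Fbn2 fell from 16, 13.2 and 14 CPM to 1.57, 3.26 and 1.83 CPM (2.82 lower on the log2 scale), the microfibril gene Mfap2 by 2.29, Ltbp4, which tethers latent TGF-beta to microfibrils, by 1.94, and elastin (Eln) by 1.93. Biglycan (Bgn) stood at 11166, 10768 and 10970 CPM in the fibroblasts and at 5942, 6497 and 6232 CPM in the ECs. The 2 that rose were versican (Vcan; 130, 158 and 121 CPM against 538, 393 and 400 CPM) and the hyaluronan synthase gene Has2, at 1.59 ± 0.149 and 1.06 ± 0.278.

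Basement membrane genes were split, 5 higher and 5 lower of 16 (median −0.10). The vessel-associated collagen genes Col15a1 and Col18a1 rose by 2.31 ± 0.221 and 1.43 ± 0.0759, and the laminin gene Lama5 by 1.22 ± 0.194, while Sparcl1, Lamb2 and Lama2 fell by 1.62, 0.81 and 0.71. Col4a1, a type IV collagen chain, ranged from 7146 to 7494 CPM in the fibroblasts and from 7294 to 8114 CPM in the ECs and was not called. Of 16 integrin genes 9 were higher and 3 lower (median 0.50; 5 lower when only the 6 heart libraries were fitted). The collagen receptor chain Itga2 rose by 2.73 ± 0.202, Itgb3 by 2.12 ± 0.199 and the laminin receptor chain Itga6 by 2.0 ± 0.0848. Itgb5, a partner of the alpha V chain, fell from 1536, 1454 and 1510 CPM to 484, 550 and 553 CPM.

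Matrix proteases showed both directions, 5 of 20 higher and 8 lower (median −0.29). The gelatinase gene Mmp2 stood at 2575, 2386 and 2570 CPM in the fibroblasts and at 668, 744 and 722 CPM in the ECs, and Mmp11 fell by 2.31. Mmp13, a collagenase, rose from 0.139, 0.282 and 0 CPM to 14.3, 6.68 and 8.90 CPM, and the inhibitor gene Timp1 rose by 1.66 ± 0.221. Among the 20 largest falls overall were further secreted or matrix-linked proteins: Mfap4, a microfibril protein, the proteases Adamts15 and Htra3, Adamtsl2 and Crispld2. Adamts15 went from 65.8, 58.1 and 71.0 CPM to 1.74, 3.95 and 5.56 CPM (−4.26 ± 0.318, edgeR adjusted p = 7.93e-08), and Htra3 from 424, 367 and 375 CPM to 14.4, 26.9 and 31.6 CPM.

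In CPM, the largest loss was that of gelsolin. Gsn, which severs actin filaments and also has a secreted form, stood at 9732, 8943 and 9918 CPM in the fibroblasts and 758, 1006 and 1084 CPM in the ECs. Gas6, the ligand of TAM receptors, averaged 4328 against 967 CPM, and Gpx3, a secreted glutathione peroxidase, 4697 against 2011 CPM. Among the largest gains was that of Csf1, the macrophage growth factor, from 1104, 1170 and 1118 CPM to 3671, 3572 and 3525 CPM. These are shares of counts, which are not corrected for gene length.

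Wnt pathway genes were divided. In that list 11 of 27 genes were lower and 9 higher (median −0.38), and of the 9 only 4 were called with a filter of 5 CPM. The secreted modulators Dkk3 and Sfrp1 stood at 700, 672 and 677 CPM and at 788, 793 and 830 CPM in the fibroblasts, against 103, 138 and 142 CPM and 181, 222 and 200 CPM in the ECs. The receptor genes Fzd2 and Fzd7 fell by 2.32 and 1.19, whereas Fzd6 rose by 1.92 ± 0.138. The R-spondin gene Rspo3, known from ECs, rose by 2.02 ± 0.128.

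In the BMP and TGF-beta list 9 of 23 rose and 6 fell (median 0.18). The receptor genes Acvrl1 and Tgfbr2 fell by 0.58 and 0.56, Smad9 by 1.93 and the ligand Tgfb3 from 106, 103 and 104 CPM to 29.2, 39.8 and 39.4 CPM. The BMP antagonist gene Grem1 rose by 3.64 ± 0.499. Growth factor genes were split, 12 of 32 higher and 11 lower (median 0.07). Ereg, an EGF receptor ligand, rose from 42.6, 37.0 and 36.5 CPM to 393, 313 and 304 CPM, Hbegf by 2.25 ± 0.137 and the receptor gene Kit by 1.57 ± 0.166. Igf1, Hgf and Vegfd, which fibroblasts secrete, fell by 1.64, 1.53 and 1.68.

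Cardiac mesenchyme transcription factors were lower in 8 of 20 tested cases and higher in 4 (median −0.15). Tbx20 stood at 1081, 1035 and 939 CPM in the fibroblasts and 517, 687 and 652 CPM in the ECs, and Gata4 at 105, 109 and 108 against 63.8, 74.3 and 71.5 CPM. Hand2 ran the other way, at 50.7, 52.7 and 53.4 CPM against 109, 103 and 105 CPM. The mesenchymal factors Prrx1 and Twist1 did not pass the threshold (log2 changes of −0.13 ± 0.0844 and 0.13 ± 0.146), while Snai2 fell by 1.24. Gli2, the Hedgehog pathway factor, was among the 20 largest falls (10, 9.26 and 10.8 CPM against 0.594, 1.5 and 1.24 CPM).

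Proliferation genes were higher in the heart ECs almost throughout. All 20 mitosis genes were higher in heart ECs, 19 of them by over 2-fold, with a median of 2.96, and 19 of 20 genes of DNA replication and S phase were higher, with a median of 1.28. Mki67, a protein of cycling nuclei, stood at 2.09, 2.87 and 3.61 CPM in the fibroblasts and 33.0, 41.8 and 41.5 CPM in the ECs. Kif11, the spindle motor Eg5, stood at 0.835, 2.02 and 1.29 CPM against 12.8, 13.5 and 15.2 CPM (3.20 ± 0.285, edgeR adjusted p = 9.68e-08). The survivin gene Birc5 rose by 3.91 ± 0.277, the centromere gene Cenpf by 3.71 ± 0.237 and the replication genes Cdc6 and Mcm5 by 3.58 ± 0.264 and 3.36 ± 0.169. E2f1, a regulator of S phase genes, was the single member not called (0.06 ± 0.0951). Together the mitosis genes took 0.00511% to 0.00574% of the counts in fibroblasts and 0.0374% to 0.0419% in ECs.

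Mitotic genes are known to be switched on late in the cell cycle through CCAAT boxes, bound by NF-Y, and the cell cycle homology region TTTGAA. The promoters of 2 members are shown because they carry both motifs, with CCAAT (or its complement) and TTTGAA (or its complement) in capitals. They are the 200 bases before the RefSeq start on GRCm38.p6, 5′ to 3′ on the gene's strand, at chr7:135716380-135716579 (minus) for Mki67 and chr19:37376182-37376381 (plus) for Kif11.
Mki67: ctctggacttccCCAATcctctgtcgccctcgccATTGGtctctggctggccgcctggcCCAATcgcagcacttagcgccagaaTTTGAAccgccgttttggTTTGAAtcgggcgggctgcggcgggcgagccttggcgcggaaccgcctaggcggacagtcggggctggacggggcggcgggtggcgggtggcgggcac
Kif11: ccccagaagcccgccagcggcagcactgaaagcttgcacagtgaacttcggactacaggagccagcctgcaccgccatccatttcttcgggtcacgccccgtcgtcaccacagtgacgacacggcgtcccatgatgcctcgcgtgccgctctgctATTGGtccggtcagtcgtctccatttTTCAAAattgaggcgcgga
In Mki67 the TTTGAA runs begin 116 and 98 bases before the start, and in Kif11 the complement begins 19 bases before it.

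Over both strands of the whole 300-base windows, from 250 before to 50 after the start, 14 of 16 mitosis genes with a promoter in the table held CCAAT (87.5%) and 11 held TTTGAA (68.8%). Of 11182 tested genes with a promoter, 42.7% held CCAAT and 14.9% TTTGAA, and of all 32851 promoters 37.4% and 17.9%. S phase genes held CCAAT in 11 of 16 cases and TTTGAA in 2 of 16. The ETS core GGAAGT was found in 6 of 15 pan-endothelial promoters (40%), against 31.3% of tested genes. These matches describe letters in a window and show no binding.

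Genes that restrain the cycle did not move one way. Of 15 genes of the p53 pathway and cell cycle inhibitors 6 were higher and 5 lower (median 0.21; 3 lower with library totals alone). The inhibitor gene Cdkn1b fell from 90.1, 79.6 and 86.0 CPM to 38.4, 42.5 and 37.4 CPM, while Cdkn1a and Cdkn2a rose by 0.26 ± 0.0726 and 0.64 ± 0.144, and Mdm2 by 0.91 ± 0.0818. Imprinted growth genes had 4 of 10 tested members higher and 2 lower (median 0.21), with 2 higher without EC replicate 2 or without fibroblast replicate 2, and 1 lower in every fit that left out 1 library. Mest stood at 11.8, 13.4 and 12.2 CPM against 155, 179 and 167 CPM and Plagl1 at 5.80, 6.77 and 5.71 CPM against 54.3, 72.2 and 56.1 CPM, while Peg10 fell by 2.19.

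Csf3, Nos2, Cxcl2, Cxcl5, Sele, Selp, Cxcl1, Lif, Ccl2 and Ptx3, all genes of inflammation, were among the 20 largest rises. Of 22 genes of interleukin 1, NF-kB and leukocyte adhesion 16 were higher and none lower (median 3.26), and of 18 tested chemokine genes 12 were higher and 2 lower (median 3.15), with 1 lower in each fit that left out 1 library other than EC replicate 2. Ccl2, which draws monocytes, stood at 60.1, 59.2 and 57.8 CPM in the fibroblasts and 1460, 1230 and 1260 CPM in the ECs (4.37 ± 0.734, edgeR adjusted p = 0.00033). Cxcl5, which draws neutrophils, stood at 7.10, 5.17 and 5.01 CPM against 489, 408 and 411 CPM (6.12 ± 1.30, adjusted p = 0.00193). Nos2, the inducible nitric oxide synthase, stood at 0.603, 0.423 and 0.538 CPM against 134, 55.4 and 61.9 CPM. EC replicate 1 was the highest EC library at each of these genes. Genes among the 20 largest rises were named only where the groups do not overlap, so their separation was set by that choice.

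Genes of leukocyte adhesion rose as well. Sele, endothelial selectin, stood at 1.21, 1.18 and 1.08 CPM in the fibroblasts and 71.6, 66.8 and 59.1 CPM in the ECs, and the adhesion receptor gene Icam1 at 201, 198 and 183 CPM against 896, 830 and 814 CPM. Cytokine genes rose too. Csf3, the granulocyte growth factor, had counts in only 1 fibroblast library (0.188 CPM) and stood at 30.3, 17.9 and 23.5 CPM in the ECs. Lif rose by 4.39 ± 0.619 and Il6 by 3.99 ± 0.820. Il1a and Il1b were at or under 1.565 CPM in every library and were not called. Their fitted changes were large but had wide SEs (5.16 ± 3.41 and 6.18 ± 6.48), and the groups did not overlap at either gene. The feedback inhibitors of NF-kB Tnfaip3 and Nfkbia rose by 2.18 ± 0.559 and 1.29 ± 0.381. Among other large rises were Ptx3, a pentraxin (110, 126 and 121 CPM against 2848, 2125 and 2082 CPM), Serpinb2, an inhibitor of plasminogen activators, and Acod1, which makes itaconate.

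The SEs of these genes are wide because the fit takes 1 spread per gene over all 18 libraries. With only the 6 heart libraries fitted, the changes of Cxcl5 and Ccl2 were 6.12 and 4.37 with adjusted p = 5.64e-07 and 4.37e-13. The acute phase gene Lcn2 rose from 65.7, 65.0 and 66.2 CPM to 1438, 924 and 933 CPM, in a list with 5 of 11 tested genes higher and 2 lower (median 1.11), 3 of them higher without EC replicate 1 or without any 1 of the fibroblast libraries. Serpina3n, another member, fell from 9689, 9643 and 9578 CPM to 4835, 4806 and 4584 CPM.

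A group of the chemokine genes lies close together on the plus strand of chromosome 5 of GRCm38, where the GENCODE gene models of Cxcl5, Cxcl3, Cxcl1 and Cxcl2 begin at 90759360, 90786103, 90891241 and 90903871. The promoters of 3 of them are shown because each holds the same match to the NF-kB consensus close to its start, in capitals. This motif was chosen after the values were seen. They are the 200 bases before the RefSeq start, which is not the same base as the GENCODE start, on the plus strand of GRCm38.p6, at chr5:90891045-90891244, chr5:90903699-90903898 and chr5:90785901-90786100.
Cxcl1: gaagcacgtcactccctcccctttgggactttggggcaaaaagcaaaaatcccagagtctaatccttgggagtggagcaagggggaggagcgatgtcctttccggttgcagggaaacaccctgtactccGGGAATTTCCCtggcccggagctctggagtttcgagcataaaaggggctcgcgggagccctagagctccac
Cxcl2: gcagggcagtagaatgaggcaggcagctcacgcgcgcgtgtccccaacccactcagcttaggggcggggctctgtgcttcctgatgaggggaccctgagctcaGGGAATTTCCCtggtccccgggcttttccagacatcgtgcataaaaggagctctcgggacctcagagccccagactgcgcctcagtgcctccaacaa
Cxcl3: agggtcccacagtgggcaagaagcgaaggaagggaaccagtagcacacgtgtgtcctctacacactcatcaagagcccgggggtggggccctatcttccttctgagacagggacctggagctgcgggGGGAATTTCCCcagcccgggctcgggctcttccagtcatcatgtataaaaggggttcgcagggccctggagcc
The match begins 71, 97 and 73 bases before the RefSeq start. Cxcl1 stood at 10.8, 11.8 and 11.2 CPM in the fibroblasts and 335, 262 and 274 CPM in the ECs. Cxcl3 had 1 count in the 3 fibroblast libraries and 7.34, 5.24 and 6.10 CPM in the ECs (edgeR adjusted p = 0.014, and 0.059 without fibroblast replicate 1). On both strands of the 300-base windows the consensus was found in 6 of 13 chemokine promoters (46.2%) and in 5 of 18 of the interleukin 1, NF-kB and adhesion list (27.8%), against 6.51% of tested genes and 4.51% of all promoters.

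Interferon genes did not share this pattern. Of 18 interferon-stimulated genes 1 was higher, the chemokine gene Cxcl10 (12.7, 23.9 and 14 CPM against 457, 241 and 157 CPM), and none lower (median 0.35), with 5 higher and 1 lower when only the 6 heart libraries were fitted and 2 higher with DESeq2. As a sum they took 0.944% of the counts in EC replicate 1, 0.605% and 0.668% in the other EC libraries and 0.53% to 0.578% in the fibroblasts. Of 11 genes of MHC class I presentation 1 was higher and 3 lower (median 0.37; 3 higher when only the 6 heart libraries were fitted, 2 with DESeq2 or library totals alone, and 0 with no filter or with the replicate block), with H2-D1 at 2278, 2253 and 2424 CPM in the fibroblasts and 1516, 1051 and 1447 CPM in the ECs. The member that was higher, the class I activator Nlrc5, was not called without EC replicate 1 or without any 1 fibroblast library.

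In the complement list 8 of 13 tested genes were lower and 1 was higher (median −1.05; 2 higher when only the 6 heart libraries were fitted). C4b stood at 586, 524 and 605 CPM in the fibroblasts and 80.9, 65.7 and 85.1 CPM in the ECs, and C7, a part of the membrane attack complex, at 18.8, 19.1 and 18.7 CPM against 0.679, 0.962 and 1.89 CPM. The inhibitor Serping1 fell by 1.31. The exception was Cd55, a surface inhibitor of complement, which rose from 52.4, 46.0 and 55.8 CPM to 240, 245 and 215 CPM. Complement C3 fell by 1.12 (edgeR adjusted p = 0.0228), a call that was lost without fibroblast replicate 1, fibroblast replicate 3 or any 1 of the EC libraries (adjusted p = 0.0522, 0.0523, 0.0575, 0.053 and 0.0623).

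Metabolic lists moved by small amounts. Cholesterol and fatty acid synthesis genes were lower in 15 of 18 cases and higher in 1 (median −0.57), the last not called without fibroblast replicate 1, EC replicate 1 or EC replicate 3. The stearoyl-CoA desaturase genes Scd1 and Scd2 stood at 380, 413 and 399 CPM and at 753, 816 and 777 CPM in the fibroblasts, against 241, 258 and 264 CPM and 481, 568 and 545 CPM in the ECs. Insig1, which holds back sterol synthesis, fell by 0.64. In the list of the unfolded protein response and endoplasmic reticulum 13 of 16 genes rose and none fell (median 0.44), and none was called in the test against a 2-fold change. The chaperone gene Hspa5 stood at 885, 915 and 880 CPM against 2169, 1625 and 1806 CPM and Creld2 rose by 1.06 ± 0.146, whereas Ddit3 and Atf4, factors of the stress branch, were not called (−0.09 ± 0.183 and 0.22 ± 0.0892). Of 20 glycolysis and hypoxia genes 10 were higher and 1 lower (median 0.28), and 6 were higher without EC replicate 1 or without fibroblast replicate 1. None was lower without fibroblast replicate 2, EC replicate 2 or EC replicate 3. Ldha rose by 0.59 ± 0.120 and the oxygen sensor gene Egln3 by 1.67 ± 0.217. Respiratory chain genes were called in 6 of 18 cases, 3 in each direction (5 higher with library totals alone; median 0.04).

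Retinoic acid genes had 5 of 11 tested members lower and 3 higher (median −0.54). Dhrs3, a retinaldehyde reductase, fell from 91.0, 90.9 and 105 CPM to 22.7, 19.1 and 20.6 CPM. The degrading enzyme gene Cyp26b1 rose by 2.35 ± 0.308 and the synthesising enzyme gene Aldh1a2 from 19.5, 20.2 and 18.7 CPM to 82.9, 74.1 and 49.8 CPM. Channel and transporter genes were higher in 13 of 22 tested cases and lower in 3 (median 0.84). The prostaglandin carrier gene Slco2a1 rose by 1.97 ± 0.135 and the mechanosensitive channel gene Piezo1 by 0.63 ± 0.115.

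Markers of other cell types moved as well. Mesothelial and epicardial genes were higher in 11 of 12 cases (median 2.83), and the member that was lower, Tbx18, was not called in 4 of the 6 fits without 1 library. Msln, a surface protein of mesothelium, stood at 18.4, 18.2 and 29.0 CPM in the fibroblasts and 166, 217 and 155 CPM in the ECs, and the epicardial factor Wt1 at 1.81, 2.02 and 0.861 CPM against 10.6, 14.1 and 8.09 CPM. The summed share of 5 mesothelial markers was 0.00367% to 0.00507% in fibroblasts and 0.0281% to 0.0407% in ECs, with EC replicate 2 highest. The keratin genes Krt8 and Krt18 were also highest in EC replicate 2, with 7.98, 14.1 and 8.09 CPM and 3.65, 7.85 and 3.29 CPM in the ECs, while Epcam, the defining marker of most epithelia, had no count in any of the 6 libraries. Aldh1a2, named above, is also a mesothelial gene, and the part of mesothelial RNA in its rise was not tested.

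Macrophage genes were present in all 6 libraries. Of 16 genes 4 were higher and 4 lower (median 0.24), which is near the shares of all tested genes (24.2% and 23.3%). Only 1 was higher without fibroblast replicate 1 or 2, and 2 without fibroblast replicate 3 or EC replicate 2. Cd14, which other cells also express under inflammation, rose from 7.19, 5.31 and 5.27 CPM to 77.3, 62.7 and 77.3 CPM, while C1qa and C1qb fell by 1.17 and 0.89. The 5 markers together took 0.0157% to 0.0175% of the counts in fibroblasts and 0.0206% to 0.0315% in ECs. Most of that share was Lyz2, the lysozyme gene, at 154, 137 and 143 CPM in the fibroblasts and 173, 271 and 184 CPM in the ECs, which was not called. The part of macrophage RNA in the inflammatory genes was not tested. Mural markers took 0.00889% to 0.0099% in fibroblasts and 0.0173% to 0.0204% in ECs. Most of that share was Notch3, at 91.7, 81.4 and 89.7 CPM in the fibroblasts and 154, 180 and 165 CPM in the ECs. Of 8 tested mural genes 5 were higher and 1 lower (3 higher without EC replicate 2 or with a filter of 5 CPM, and 2 lower when only the 6 heart libraries were fitted), with Cspg4, the NG2 proteoglycan, at 1.21, 1.60 and 1.35 CPM against 6.83, 6.46 and 7.28 CPM and Pdgfrb falling by 1.32. In the contractile list 7 of 15 genes were higher and 1 lower (median 0.51), the last called in no fit that left out 1 library other than EC replicate 2, while 3 were lower when only the 6 heart libraries were fitted. Tagln rose from 40.2, 41.7 and 42 CPM to 103, 132 and 110 CPM and Acta2, the smooth muscle actin, did not pass the threshold (0.26 ± 0.179).

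Most heart muscle genes were near the limit of detection. Of 10 tested cardiomyocyte genes 6 were higher and 1 lower, but with a filter of 5 CPM only 1 was higher. Nppa, the atrial natriuretic peptide, stood at 1.25, 0.987 and 1.83 CPM in the fibroblasts and 27.3, 24.2 and 24.6 CPM in the ECs, whereas Tnnt2, cardiac troponin T, stood at 82.9, 74.2 and 76.1 CPM against 29.3, 43.5 and 36.9 CPM. The contractile genes Myh6, Ttn and Actc1 stayed at or under 3.53 CPM in every library and were called higher in the ECs (3.45 ± 0.956, 2.82 ± 0.587 and 3.91 ± 0.857). The lower sum of cardiomyocyte markers in the ECs thus reflects Tnnt2, which held most of it. The 3 Schwann cell markers together took at most 0.000254% of the counts in any of the 6 libraries. The Y-linked genes Ddx3y, Uty, Eif2s3y and Kdm5d were present in all 6, with Ddx3y at 106, 101 and 96.1 CPM against 93.4, 106 and 89.2 CPM. Xist, the other sex-linked gene listed, had no entry in the deposited counts, so the presence of female cells was not tested.

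**Figure D4:**
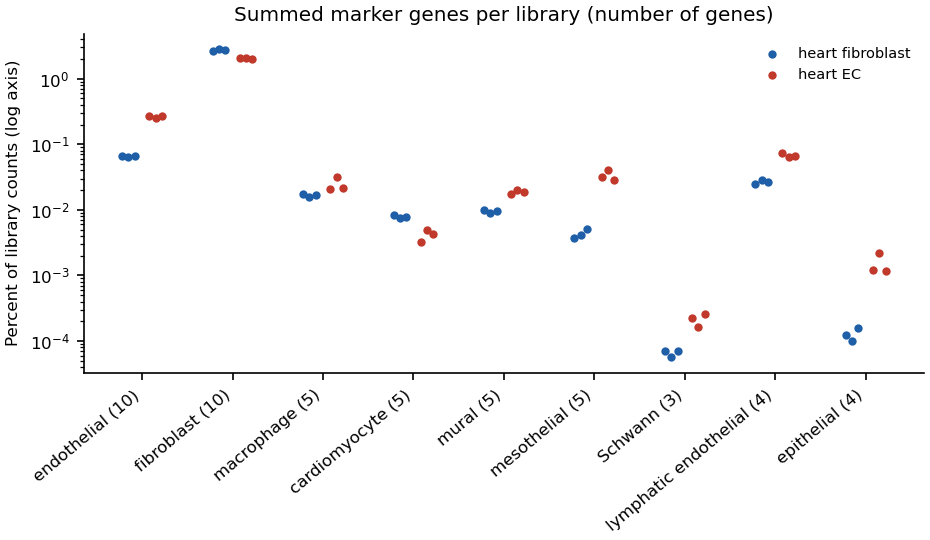
Percent of library counts taken by the marker genes of 9 cell types (number of genes in brackets) on a log axis, with 1 point for each heart fibroblast library in blue and each heart EC library in red. Endothelial, lymphatic, mesothelial, mural, macrophage, epithelial and Schwann markers lie higher in every EC library, and fibroblast and cardiomyocyte markers lie lower. Most of the cardiomyocyte share is Tnnt2, while Myh6, Ttn and Actc1 were called higher in ECs. Most of the mural share is Notch3. Fibroblast markers lie near 2% to 3% in both groups, and epithelial and Schwann markers lie at or under 0.00222%.

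The same contrast in lung shows where the heart differs. Over all tested genes, the change from fibroblast to EC was larger in heart than in lung, in the signed sense, for 18.3% and smaller for 16.2% (edgeR interaction test, adjusted p under 0.05). The heart and lung contrasts share no library. All 10 endothelial markers rose in both organs and all rose less in heart. Cdh5 rose by 2.62 ± 0.119 in heart and by 8.29 ± 0.159 in lung, where fibroblasts averaged 3.11 CPM and ECs 1063 CPM. Kdr differed least between the organs (2.39 against 3.23). Of the 10 fibroblast markers, Dpt, Col3a1, Col1a1, Col1a2, Pdgfra and Tcf21 fell less in heart or did not fall there, Postn fell more, and Dcn, Lum and Thy1 did not differ between the organs past the threshold.

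Other members ran larger in heart. Aqp1 rose by 3.89 ± 0.290 in heart and 0.93 ± 0.251 in lung, and Nrg1 by 4.43 ± 0.173 and 1.93 ± 0.166 (interaction adjusted p = 2.46e-05 and 1.97e-07). Mki67 rose by 3.66 ± 0.177 and 0.97 ± 0.139, with lung fibroblasts averaging 51.0 CPM, and Msln by 2.92 ± 0.199 in heart, with a log2 change of 0.34 ± 0.182 in lung. Lpl fell by 2.29 in heart and stood higher in lung ECs than in lung fibroblasts, at 353 against 177 CPM (interaction −3.17 ± 0.334, adjusted p = 3.20e-06). The lymphatic genes Reln, Lyve1 and Prox1 rose less in heart (interaction −5.48, −3.67 and −3.28). Reln rose by 3.98 ± 0.185 in heart and 9.45 ± 0.263 in lung. For the inflammatory genes Cxcl5 and Nos2 the interaction did not pass the threshold (1.61 ± 1.72 and 2.19 ± 1.59). The 5 macrophage markers averaged 0.0999% of the counts in lung fibroblasts and 0.85% in lung ECs, against 0.0166% and 0.0246% in heart, and their part in the lung change was not tested.

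**Figure D5:**
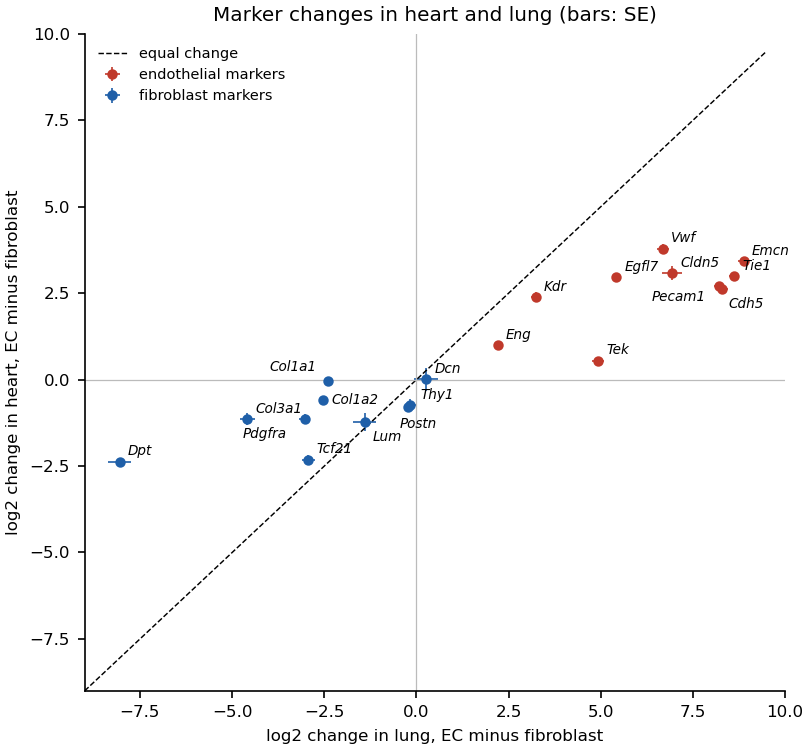
Log2 change from fibroblast to EC in lung (x axis) and in heart (y axis) for 10 endothelial markers in red and 10 fibroblast markers in blue, with bars of 1 SE and a dashed line of equal change. The endothelial markers lie below the line, with heart changes of 0.55 to 3.79, and most fibroblast markers lie above it.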

How the data were processed

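The authors deposited 1 table of estimated counts (expected counts) per gene for 18 libraries, in whole numbers without scaling. Per the submitters' processing notes Salmon, DESeq2 and the mm10 build were used, while versions and the summing of transcripts to genes are not given in the sources used here. Of 35727 gene IDs, 35493 had a symbol in GENCODE M21 (GRCm38), and IDs without one held 0.0372% of counts. Promoters are RefSeq's on GRCm38.p6.

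The tests used edgeR 4.0.16 in R 4.3.3: filterByExpr on the 6 groups (14864 genes, 99.97% of counts), TMM scaling and robust quasi-likelihood fits in which each of the 6 groups had its own mean and all 18 libraries shared the spread (12 residual degrees of freedom). A call means a p-value under 0.05 after Benjamini-Hochberg adjustment, or a pass with glmTreat against a log2 change of 1. SE is the absolute log2 change over the square root of its F statistic. CPM use library totals, so a CPM ratio lies about 0.1 above the fitted log2 change. The fits were also run on simulated data with 1 spread for all genes and changes in a small part of them. These data differ in both respects, so that run does not test the scaling or the shared spread used here. In the heart libraries 1 count equals 0.0424 to 0.054 CPM.

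Named genes were the 20 largest changes per direction with at least 10 CPM and groups that do not overlap, up to 6 called members of a list per direction with at least 5 CPM, the cell type markers, the 8 largest gains and losses in mean CPM and the sex-linked genes, and other list members are examples chosen after their values were seen. The gene lists, tests and rule were chosen with earlier results of these data known. Alternatives were RLE scaling, library totals alone (added later), no filter, a filter of 5 CPM in 3 libraries, the 6 heart libraries alone, a replicate block, each library left out, and DESeq2 1.42.0. Motifs were searched as plain letters on both strands.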

Additional observations from a re-analysis of the deposited data

Results flagged for a closer look

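The change from fibroblast to EC differed between heart and lung at 17 of the 20 endothelial and fibroblast markers, by an edgeR interaction test over the 12 heart and lung libraries of these cell types within the fit to all 18. Values are the heart change minus the lung change on the log2 scale. Among endothelial markers it was −5.49 for Pecam1, −5.66 for Cdh5, −4.38 for Tek, −5.61 for Tie1, −5.44 for Emcn and −3.84 for Cldn5, so that each of these genes rose far less in heart. It was −2.90 for Vwf, −2.45 for Egfl7, −1.21 for Eng and −0.84 for Kdr (adjusted p = 0.0018 for Kdr). Among fibroblast markers it was 5.67 for Dpt, 3.45 for Col3a1, 2.36 for Col1a1, 1.94 for Col1a2, 1.88 for Pdgfra and 0.62 for Tcf21 (adjusted p = 0.0312 for Tcf21), and −0.58 for Postn. Heart fibroblasts held 0.065% of their counts in the 10 endothelial markers and lung fibroblasts 0.0114%, while heart ECs held 2.06% in the 10 fibroblast markers and lung ECs 0.695%. Most of the heart fibroblast share of endothelial markers was Eng, at 409, 422 and 433 CPM. The part of mixed cells in these differences between heart and lung was not tested.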

How the results depend on the processing

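The counts of genes higher and lower in heart ECs (3590 and 3461) stayed within 1.5 times under every alternative run, from 3048 to 4630 higher and from 2432 to 4008 lower. Leaving out 1 library gave 3048 to 3318 higher and 2860 to 3101 lower, and DESeq2 3835 and 3430. Of 346 named genes, 306 kept their call under every alternative that included them. No named gene called in the main fit or in the alternative changed direction. Direction was not counted for named genes called in neither, and was not compared for genes that were not named. With the replicate number as a block, 3488 genes were higher and 3362 lower. Same-numbered libraries of the 2 groups did not deviate together (r = 0.0405, −0.0232 and 0.0807), so the numbers were not taken as pairs. Depth limits genes under about 1 CPM, where a few counts set the fold, and 3 libraries per group with no stated origin limit the tests.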
